A study of Mus musculus with 6 samples.

Results

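The 10 genes followed here belong to cells of the small bowel crypt, and their RNA was measured in MHCIIhi cells sorted from the muscularis externa (ME), the muscle coat of the bowel wall. They are the crypt stem genes Lgr5, Olfm4, Ascl2 and Sox9, the enteroendocrine genes Chga, Chgb and Cck, and the tuft genes Dclk1, Trpm5 and Pou2f3. The 10 genes were chosen by name from what is known of these cell types, with earlier results of these data known. Of them, 9 were among the 26110 genes listed, whereas Ascl2 was not analysed here. Bulk RNA-seq gave 6 libraries, 3 of CX3CR1- cells and 3 of CX3CR1+ cells. Both populations came from untreated naive CX3CR1+/GFP mice on a C57BL/6 background, in which green fluorescent protein replaces 1 allele of Cx3cr1 and marks the cells that use its promoter. Female mice were used in the study, and their age is not given in the sources used here. Tissue of 6 mice was pooled for each group. It is not stated if every library came from its own pool, so that p-values measure the spread between libraries, which may be technical. Replicates 1, 2 and 3 of a population are numbered by ascending library number.

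The crypt epithelium renews itself from stem cells at its base, which carry the R-spondin receptor LGR5 and depend on Wnt signals. Their daughters become absorptive enterocytes or secretory cells, among them enteroendocrine cells, which release hormones from dense-core granules, and tuft cells, which sense luminal contents and signal to immune cells. All of these lie in the mucosa, on the luminal side of the ME. Several of the genes also have other sources: chromogranins and Cck are made by neurons, Sox9 by glia and mesenchymal cells, Olfm4 by neutrophils, and Dclk1 by neurons.

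The measured values are estimated counts per gene that the authors normalized between libraries, called normalized values here. The libraries held about 5346381 to 17616761 reads assigned to genes, and 3 reads, taken as the floor of measurement, correspond to a normalized value of 1.39 to 5.36. The 17812 genes whose mean over all libraries reached 10 were tested with limma on log2(value + 1), and the log2 fold changes are on that scale, which understates the change of low genes. Genes were called higher or lower in CX3CR1- cells where the log2 fold change was 1 or more in size and the Benjamini-Hochberg adjusted p was 0.05 or less. Of the 9 listed crypt genes, 6 passed the filter, and 3 of these 6 were called higher in CX3CR1- cells (Chga, Chgb and Dclk1) and 0 lower, against 12.2% called higher, 8.15% lower and 20.4% in either direction among all tested genes. The log2 fold changes of all 6 were positive, but the filter took part in this. Sox9 and Cck had CX3CR1+ means of 6.13 and 0.17 and passed the filter through the CX3CR1- libraries only. Lgr5, with a mean log2 difference of -0.69, did not pass it. Any tested gene at or near 0 in the CX3CR1+ libraries passed in the same way and could hardly be called lower. Sox9, Cck and Trpm5 were tested and not called, and Lgr5, Olfm4 and Pou2f3 lay below the filter. An exact permutation test over 3 libraries against 3 cannot go below p = 0.1.

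**Figure D1:**
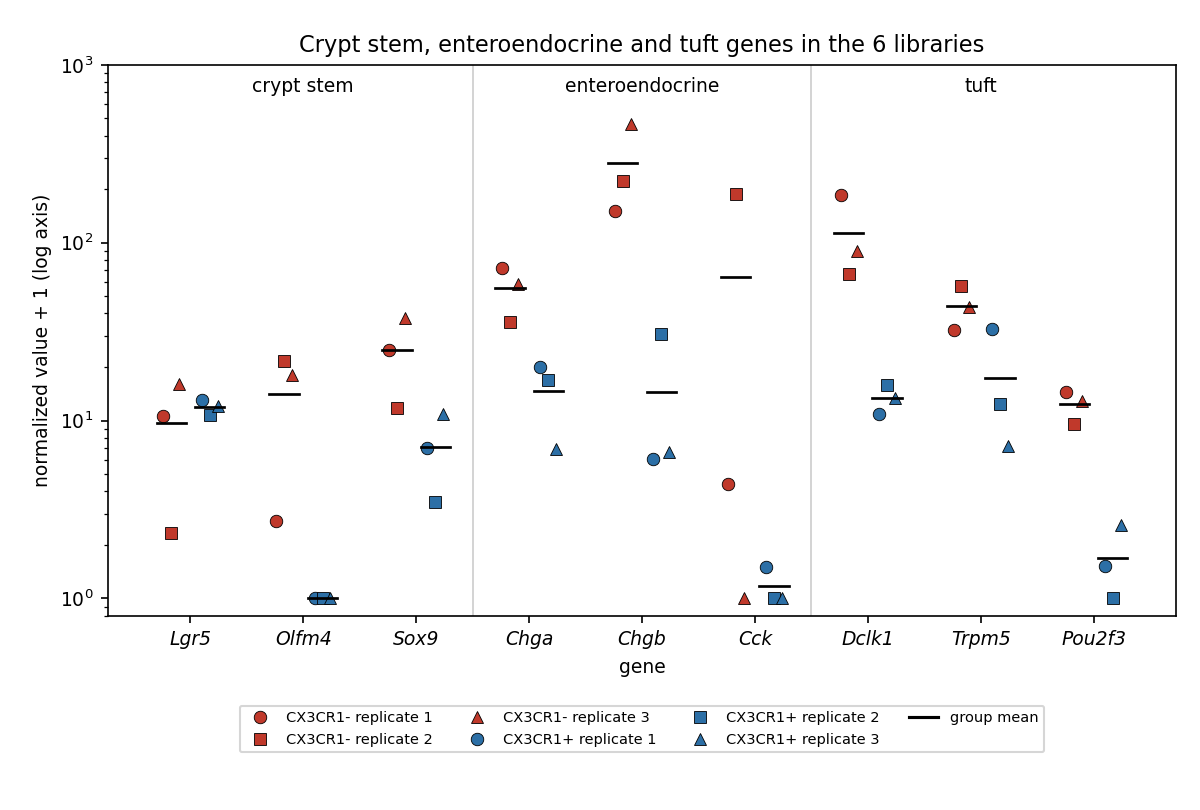
Normalized value + 1 on a log axis for the 9 listed crypt genes, with 1 symbol per library, red for CX3CR1- and blue for CX3CR1+, and a bar at each group mean. Chgb, Chga, Dclk1, Sox9, Olfm4 and Pou2f3 do not overlap between the populations, Lgr5, Cck and Trpm5 do, and Cck is high in CX3CR1- replicate 2 only. Among all tested genes, 20.3% had groups apart with CX3CR1- higher and 19.8% with CX3CR1- lower. Olfm4 in CX3CR1- replicate 1 (1.72) is below the floor of 3 reads.

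The sorted populations were compared with markers of the cells they could hold. The labels call the cells dendritic cells, whereas the study calls them macrophages. The study rests this on protein: MHCII+ cells stained for IBA-1, and by flow cytometry most CX3CR1- cells held CD11b and few CD11c or CD103. It also reported higher RNA of CD103 and Flt3 in CX3CR1- cells. The marker values given here are RNA, a different measure. All 10 macrophage markers were called lower in CX3CR1- cells, with a summed normalized value of 5924 to 6466 against 28200 to 30395, and Csf1r was the most abundant. Of 11 dendritic cell markers, 9 were called higher in CX3CR1- cells, with a sum of 5011 to 5843 against 1337 to 1433. Cx3cr1 itself lay between 18.9 and 28.5 in CX3CR1- and between 347 and 380 in CX3CR1+ libraries. Of the 4 MHC class II genes, 1 was called lower. Gut epithelium in general had 14 markers, of which 13 were tested and all 13 were called higher in CX3CR1- cells, with a sum of 3958 to 6805 against 37.95 to 62.6. Cldn3 and Phgr1 were at 0 in all CX3CR1+ libraries, and no epithelial marker was at 0 in a CX3CR1- library. Enterocyte markers (10 of 10 tested called higher), goblet cell markers (7 of 7) and Paneth cell markers (3 of 6) had sums of at least 2403 in the CX3CR1- libraries and at most 110 in the CX3CR1+ libraries. Enteric glia had 4 of 5 tested markers called higher, with a sum of 221 to 551 against 63.9 to 89.7. Enteric neurons had 1 of 10, and their sums of 222 to 731 and 217 to 303 overlapped. Fibroblast markers (8 of 8) summed to 5279.6 to 16043 against 210.2 to 366, and B and plasma cell markers (7 of 8) to 3509.8 to 26623 against 71.0 to 98.8. Of 7 markers of smooth muscle and interstitial cells of Cajal, only Kit was called higher. Of 5 tested T cell markers, 2 were called higher and 1 lower. Of the neutrophil markers, Cxcr2 was the only one tested and was not called, and Ltf was at 0 in CX3CR1- replicates 1 and 2. Mitochondrial transcripts took 47.5 to 54.9% of the normalized total in CX3CR1- and 18.1 to 21.2% in CX3CR1+ libraries. Most markers of epithelium, glia, fibroblasts, B and plasma cells and dendritic cells were higher in CX3CR1- cells, as were Chga, Chgb and Dclk1. Macrophage markers were lower, and the part of any of these cells in the results described next was not tested. In bulk samples, fewer cells of a type and less RNA per cell cannot be told apart.

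Among the enteroendocrine genes, Chgb had the largest log2 fold change of the crypt genes tested, and its group means differed 20.7-fold. Chgb encodes chromogranin B, a protein of the dense-core granule, and lies on chromosome 2 (GRCm38, 132781278 to 132795079, plus strand). The normalized values of Chgb were 150.3, 219.9 and 465 in CX3CR1- replicates 1, 2 and 3 and 5.09, 29.5 and 5.67 in the CX3CR1+ replicates. The lowest CX3CR1- library was above the highest CX3CR1+ library by a wide margin, and replicate 3 stood highest. The means of Chgb were 278 ± 165 and 13.4 ± 13.9 (SD, n = 3 each), with a log2 fold change of 4.54 (SE 0.63, limma adjusted p = 0.000562). It was called in all 6 fits that left out 1 library, with log2 fold changes from 4.09 to 5.29.

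Chga encodes chromogranin A, the general marker of enteroendocrine cells, and lies on chromosome 12 (102554969 to 102565028, plus strand). The values of Chga were 70.8, 34.6 and 57.9 in CX3CR1- and 18.9, 15.97 and 5.94 in CX3CR1+ libraries. The groups did not overlap, but the gap between them was narrower than for Chgb. The log2 fold change of Chga was 2.002 (SE 0.51, limma adjusted p = 0.0171), with means of 54.4 ± 18.4 and 13.6 ± 6.79 (SD, n = 3 each). This call was lost without CX3CR1- replicate 1 (limma adjusted p = 0.0662), CX3CR1- replicate 3 (0.0580) or CX3CR1+ replicate 3 (0.0569).

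Cck encodes cholecystokinin, the hormone that releases bile and pancreatic enzymes, and lies on chromosome 9 (121489824 to 121495694, minus strand). The values of Cck were 3.42, 186 and 0 in CX3CR1- replicates 1, 2 and 3, and 0.505, 0 and 0 in the CX3CR1+ replicates. Nearly all of the Cck signal was in CX3CR1- replicate 2, from about 104 reads, and replicate 3 had none. The log2 fold change of 3.03 (SE 1.76) did not pass (limma adjusted p = 0.253), and was 0.88 without that library. The range of Cck within CX3CR1- cells was wider than that of 99.9% of the tested genes.

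Chga and Chgb are shown with their promoters, because both encode granule proteins and were called higher in CX3CR1- cells, together with the promoter of Dclk1, the tuft gene that was called. The windows hold 250 bases before and 50 bases from the transcription start in the RefSeq table (GRCm38.p6), which gives windows for 7 of the 10 genes. They are Chga at chr12:102554691-102554990, Chgb at chr2:132781392-132781691 and the first of the Dclk1 windows at chr3:55242114-55242413, all on the plus strand. Capitals mark the matched motifs.

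Chga: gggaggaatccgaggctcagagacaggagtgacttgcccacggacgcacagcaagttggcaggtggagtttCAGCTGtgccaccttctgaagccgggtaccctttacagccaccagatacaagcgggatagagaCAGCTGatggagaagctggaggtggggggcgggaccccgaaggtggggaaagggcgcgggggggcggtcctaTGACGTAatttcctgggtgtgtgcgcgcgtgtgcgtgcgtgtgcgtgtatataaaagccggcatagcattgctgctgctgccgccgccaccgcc

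Chgb: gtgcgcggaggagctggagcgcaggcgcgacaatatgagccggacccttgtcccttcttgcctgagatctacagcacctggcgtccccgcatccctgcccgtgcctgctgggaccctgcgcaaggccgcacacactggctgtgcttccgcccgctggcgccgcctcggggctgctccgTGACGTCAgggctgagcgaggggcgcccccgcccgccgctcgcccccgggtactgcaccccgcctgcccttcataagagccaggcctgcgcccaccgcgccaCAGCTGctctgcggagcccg

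Dclk1: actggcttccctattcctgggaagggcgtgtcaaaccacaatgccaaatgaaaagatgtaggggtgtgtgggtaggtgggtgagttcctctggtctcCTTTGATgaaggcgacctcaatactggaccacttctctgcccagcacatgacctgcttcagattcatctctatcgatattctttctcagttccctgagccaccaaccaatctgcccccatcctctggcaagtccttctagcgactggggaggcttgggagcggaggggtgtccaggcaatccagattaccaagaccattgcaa

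The motifs searched on both strands were the E-boxes CAGCTG and CATATG, the Tcf/Lef core CTTTGAT, the octamer ATTTGCAT and, added after the Chga and Chgb windows had been read, the cyclic AMP response element TGACGTCA and its shorter form TGACGTA. Positions give the first base of a match, with the start site as 1 and the base before it as -1. Chga held CAGCTG at -179 and -116 and TGACGTA at -44, and Chgb held TGACGTCA at -72 and CAGCTG at 31. The first Dclk1 window held CTTTGAT at -153, and the other windows of the crypt genes held none of these motifs. Among 32851 promoters of the same length, CAGCTG occurred in 16.3%, CATATG in 3.91%, CTTTGAT in 3.73%, ATTTGCAT in 1.74%, TGACGTCA in 1.79% and TGACGTA in 1.27%. The matches describe letters in the windows and no binding was measured.

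Gut hormones other than Cck differed in which CX3CR1- library held them. Of 9 listed genes, which are hormones and Tph1, the enzyme of serotonin synthesis, 7 were tested. Of these, 2 were called higher and 0 lower, with a median log2 fold change of 2.85 against -0.00 over all genes tested. All 7 had a CX3CR1+ mean below 10 and passed the filter through the CX3CR1- libraries only. The direction of these counts and of the median therefore largely follows from the filter. For genes at 0 in all CX3CR1+ libraries, the ratio of the CX3CR1- mean to 3 reads per CX3CR1+ library was also put in its place. The median was then 3.28, the value of Pyy, which was above 0 in 1 library only. Sct, the gene of secretin, had 5.59, 107 and 19.2 in CX3CR1- libraries and 0 in all CX3CR1+ libraries (limma adjusted p = 0.0131), at least 16.2-fold higher when 3 reads per CX3CR1+ library are taken as the floor. Tph1 had 29.1, 12.8 and 55.8 against 10.6, 1.0 and 1.73, with a log2 fold change of 2.85 (limma adjusted p = 0.0315). The groups of Tph1 did not overlap, and the call held in 2 of 6 fits that left out 1 library. It was lost without CX3CR1- replicate 1 or 3 and without CX3CR1+ replicate 2 or 3, with limma adjusted p up to 0.109.

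Each of the 9 hormone genes was highest in a CX3CR1- library, 5 of them in replicate 2 and 4 in replicate 3. Replicate 2 was highest for Gip (140.2, 209 and 0 in replicates 1, 2 and 3), the incretin of K cells, and for Pyy (0, 78.7 and 0), the peptide of L cells. It was also highest for Nts (0, 122 and 27.9), Ghrl (4.03, 64.3 and 5.45) and Sct. Replicate 3 was highest for Tph1, Tac1, Sst and Vip, of which the first is a gene of enterochromaffin cells and the others are also made by enteric neurons. Gip, with a log2 fold change of 4.76 (limma adjusted p = 0.0751), Nts (0.108) and Tac1 (0.627) were not called. Each was called without the CX3CR1- library in which it was at 0 (limma adjusted p = 0.000208, 0.00230 and 0.0264). That library was picked for its 0, so these fits show how far the result hangs on 1 library and lend it no support.

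**Figure D2:**
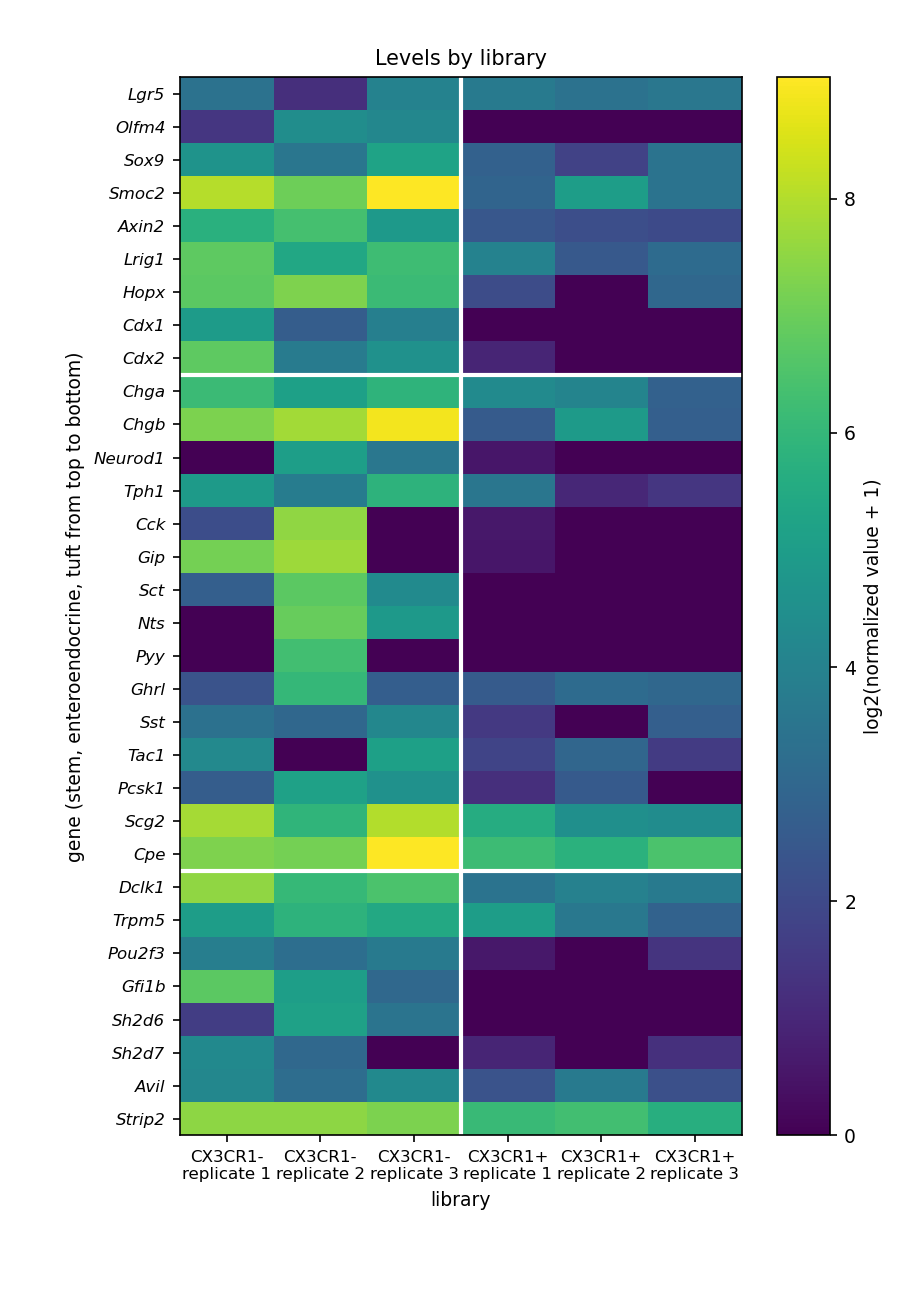
Colour gives log2(normalized value + 1) of the 9 listed crypt genes and other genes of the stem, enteroendocrine and tuft lists (rows) in the 6 libraries (columns), with white lines between the populations and between the lists. The hormones Cck, Gip, Sct, Nts, Pyy and Ghrl are brightest in CX3CR1- replicate 2, and Olfm4, Sct, Nts, Pyy and Gfi1b are at 0 in all CX3CR1+ libraries.

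Granule and peptide processing genes had 2 called higher of 8 tested and 0 lower, with a median log2 fold change of 1.44. They were Scg2, secretogranin II (226, 59.5 and 253 against 47.6, 21.5 and 20.01, log2 fold change 2.41), and Cpe, carboxypeptidase E (1.67). Both are also expressed by neurons. Scg2 lost its call without CX3CR1- replicate 1 or 3, and Cpe without any single CX3CR1+ library. Pcsk1 and Pcsk1n, which were not called, had CX3CR1+ means of 2.09 and 6.02 and passed the filter through the CX3CR1- libraries only. Of the transcription factors of enteroendocrine fate, 3 of 12 were listed and only Pax6 was tested, with a log2 fold change of 1.01 that did not pass (limma adjusted p = 0.201). Neurod1, which drives late enteroendocrine differentiation, had 0, 32.2 and 11.0 in CX3CR1- replicates 1, 2 and 3 and at most 0.463 in CX3CR1+ libraries.

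The tuft gene Dclk1 was 9.15-fold higher in CX3CR1- cells. Dclk1 encodes a microtubule-associated kinase used to stain tuft cells, and lies on chromosome 3 (55242364 to 55539068, plus strand), where Gm21954 overlaps it on the other strand. The values of Dclk1 were 184, 65.4 and 88.3 in CX3CR1- and 9.84, 14.7 and 12.3 in CX3CR1+ libraries. The groups were well apart, and CX3CR1- replicate 1, which was highest for none of the hormone genes, was highest for Dclk1. The means were 113 ± 62.8 and 12.3 ± 2.45 (SD, n = 3 each), with a log2 fold change of 2.97 (SE 0.44, limma adjusted p = 0.000807). Dclk1 was called in all 6 fits that left out 1 library, from 2.55 to 3.29.

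Trpm5 encodes the cation channel of tuft cell taste signalling, and lies on chromosome 7 (143069153 to 143094642, minus strand), where Tssc4 overlaps it on the other strand. The values of Trpm5 were 31.4, 55.9 and 42.5 in CX3CR1- and 31.6, 11.4 and 6.21 in CX3CR1+ libraries. CX3CR1+ replicate 1 reached the lowest CX3CR1- library, so that the groups overlapped. The log2 fold change of 1.59 (SE 0.57) did not pass (limma adjusted p = 0.0716). Of the fits that left out 1 library, only that without CX3CR1+ replicate 1 called Trpm5 (2.19, limma adjusted p = 0.0246). The limma adjusted p of these fits reached 0.229. Replicate 1 is the library that made the groups overlap, so its removal lends no support. Reads of Trpm5 and Tssc4 cannot be told apart by strand, and 2.89% of the 31-base words of Trpm5 transcripts occur in other genes.

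Pou2f3 is the transcription factor that tuft cells require, and lies on chromosome 9 (43123939 to 43210369, minus strand). The values of Pou2f3 were 13.5, 8.54 and 11.95 in CX3CR1- and 0.513, 0 and 1.57 in CX3CR1+ libraries. All CX3CR1- libraries were above the floor of 3 reads and all CX3CR1+ libraries below it, at about 29.7 reads in total against 2.22. The ratio of read rates was 24.3, with a 95% interval from 6.17 to 210.1 that covers counting error only. The mean of Pou2f3 was below the filter, and with no filter it had a log2 fold change of 2.95 (limma adjusted p = 0.0148 over 26110 genes).

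Of 23 other genes of tuft cells, 15 were listed, and Il25, Gng13 and Sucnr1 were among those not listed. Of the 15, 7 were tested, 2 were called higher and 0 lower, with a median log2 fold change of 0.90. Tas1r3 (-1.27) and Tslp (-0.40) were negative and not called. Gfi1b, Il17rb and Avil had CX3CR1+ means below 10 and passed the filter through the CX3CR1- libraries only. Gfi1b, a transcription factor of tuft cells and of some blood lineages, had 106, 32.8 and 7.31 in CX3CR1- libraries and 0 in all CX3CR1+ libraries, at least 18.1-fold higher (limma adjusted p = 0.00586). The other was Strip2, with a log2 fold change of 1.39. Plcb2, the phospholipase next to Trpm5 in taste signalling, had 241 to 333 in CX3CR1- and 235 to 306 in CX3CR1+ libraries and was not called. Of 14 tuft genes that leukocytes also express, 3 were called higher and 6 lower, with a median of -0.22. Those called higher were Cd24a (5.95), Siglecf (2.89) and Spib (2.499), and Siglecf kept its call in 1 of 6 fits, the one without CX3CR1- replicate 3. Those called lower included Hpgds (-4.32), Fyb (-2.66), Ltc4s (-2.39), Ptgs1 (-1.90) and Alox5 (-1.74), of which Hpgds, Ltc4s, Ptgs1 and Alox5 make prostaglandins and leukotrienes.

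Of the crypt stem genes, Sox9 was the only one tested, and it was not called. Lgr5, the receptor that defines the stem cells at the crypt base, did not stand higher in CX3CR1- cells. Lgr5 lies on chromosome 10 (115450311 to 115587780, minus strand), and A930009A15Rik overlaps it on the other strand. The values of Lgr5 were 9.61, 1.34 and 15.1 in CX3CR1- and 11.99, 9.69 and 11.02 in CX3CR1+ libraries. The CX3CR1- libraries lay on both sides of the CX3CR1+ libraries, which were close together, and CX3CR1- replicate 2 was below the floor. The means were 8.69 ± 6.93 and 10.9 ± 1.15 (SD, n = 3 each), below the filter, and the exact two-sided permutation p was 0.7. The mean log2 difference was -0.69, and without CX3CR1- replicate 2 it was 0.14. The ratio of Lgr5 read rates was 0.88, with a 95% interval from 0.52 to 1.46 that covers counting error only. With no filter, Lgr5 was not called (limma adjusted p = 0.588 over 26110 genes).

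Olfm4, a secreted glycoprotein abundant in small bowel crypt stem cells and also made by neutrophils, lies on chromosome 14 (79984081 to 80023139, plus strand). The values of Olfm4 were 1.72, 20.5 and 17.1 in CX3CR1- libraries and 0 in all CX3CR1+ libraries. Replicate 1 was below the floor, so that the signal came from CX3CR1- replicates 2 and 3. The mean of 13.1 ± 10.01 (SD, n = 3) was at least 4.86-fold higher than the CX3CR1+ floor of 3 reads per library. With no filter, Olfm4 was called higher (limma adjusted p = 0.0274 over 26110 genes), and its transcripts share 4.20% of their 31-base words with other genes, mostly Gm6999.

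Sox9, a transcription factor of crypt progenitors and of Paneth, enteroendocrine and tuft cells, lies on chromosome 11 (112782224 to 112787760, plus strand). The values of Sox9 were 24.002, 10.7 and 36.9 in CX3CR1- and 6.01, 2.46 and 9.92 in CX3CR1+ libraries. The groups did not overlap, although CX3CR1- replicate 2 was close to the highest CX3CR1+ library, and among all tested genes 20.3% had groups apart with CX3CR1- higher and 19.8% with CX3CR1- lower. The log2 fold change of 1.80 (SE 0.69) did not pass (limma adjusted p = 0.0867), with means of 23.9 ± 13.1 and 6.13 ± 3.73 (SD, n = 3 each). Of the fits that left out 1 library, only that without CX3CR1- replicate 2, the lowest CX3CR1- library, called Sox9 (2.26, limma adjusted p = 0.0346). The limma adjusted p of these fits reached 0.268. A fit picked for the value of the library left out lends the result no support.

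Of 22 other listed stem cell genes and Wnt targets, 16 were tested, 6 were called higher and 0 lower, with a median log2 fold change of 1.37. They were Hopx (5.03), Cdx2 (4.73), Smoc2 (4.24), Axin2 (3.44), Lrig1 (2.92) and Slc12a2 (1.58). Hopx, Cdx2, Axin2 and Lrig1 had CX3CR1+ means of 3.44, 0.31, 3.68 and 9.27. They passed the filter through the CX3CR1- libraries only, as did Tnfrsf19 (2.33), which was not called. The direction of the counts and of the median therefore follows in part from the filter. Smoc2, a matricellular protein of crypt stem cells that fibroblasts also make, had 259.9, 131 and 525 in CX3CR1- and 6.48, 32.0 and 9.92 in CX3CR1+ libraries. Axin2, the feedback inhibitor of Wnt signalling, had 52.2, 81.2 and 28.2 against 4.47, 3.52 and 3.04. Both sets of values were apart between the populations, with the highest Smoc2 in replicate 3 and the highest Axin2 in replicate 2. Slc12a2 kept its call in only 1 of 6 fits, the one without CX3CR1- replicate 2. The Wnt targets Znrf3 (log2 fold change -1.03) and Nkd1 (-0.29) were not called. Znrf3 was called lower only without CX3CR1- replicate 3, its highest CX3CR1- library (-1.48, limma adjusted p = 0.0193).

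Genes of Notch signalling and secretory fate had 2 called higher of 7 tested and 0 lower, with a median of 0.00. Dll4, a Notch ligand, had 47.0, 12.5 and 16.95 in CX3CR1- libraries and 0 in all CX3CR1+ libraries, at least 9.44-fold higher (limma adjusted p = 0.00532). Hes1, the Notch target that restrains secretory fate, had a log2 fold change of 1.21 (limma adjusted p = 0.0358) and kept its call in 2 of 6 fits, those without CX3CR1- replicate 2 or CX3CR1+ replicate 3. Atoh1, the switch to secretory fate, lay below the filter, with 4.17, 17.9 and 8.97 in CX3CR1- libraries and 0 in all CX3CR1+ libraries. Of 14 tested ligands and inhibitors of the crypt niche, 5 were called higher and 1 lower, with a median of 0.69. The Wnt inhibitors Sfrp1 (4.16) and Dkk3 (2.60) and Bmp4 (3.25) were higher, as were Rspo1 (1.91) and Wnt5a (1.84), with Rspo1 keeping its call only without CX3CR1- replicate 2 or CX3CR1+ replicate 1 and Wnt5a only without CX3CR1- replicate 2. Bmp2 was lower (-3.38), with 60.8 to 305 in CX3CR1- and 1189.8 to 1602 in CX3CR1+ libraries.

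**Figure D3:**
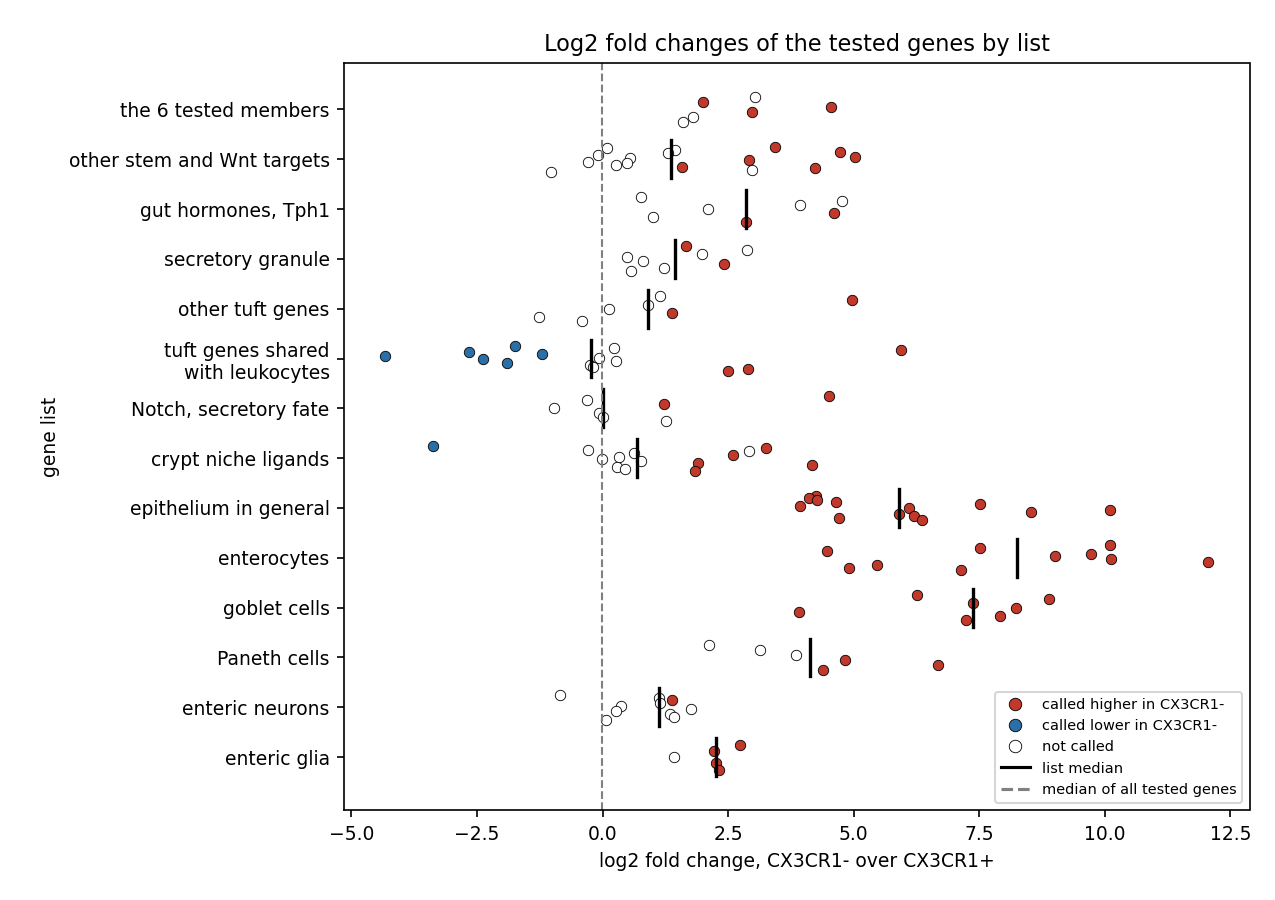
Log2 fold change on log2(value + 1), CX3CR1- over CX3CR1+, of every tested gene of each list, with red and blue points for genes called higher and lower, open points for genes not called, black bars at list medians and a dashed line at the median of all genes tested. The 6 tested crypt genes lie to the right of the dashed line, with 3 of 6 called, whereas Lgr5 is not shown because it lay below the filter. Every tested gene of the epithelium, enterocyte and goblet cell lists was called higher.

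The levels of the 9 crypt genes were then ordered per kilobase of exon, since longer transcripts give more reads. The length was the union of all annotated exons, 15296 bases for Dclk1 and 10264 for Lgr5 against 2740 for Chgb. Where the transcripts expressed are shorter than this union, the level is understated, and the order of genes may change. In CX3CR1- cells the mean normalized value per kilobase was 102 ± 60.3 for Chgb, 48.3 ± 81.4 for Cck and 19.7 ± 6.66 for Chga (SD, n = 3 each). Then came Dclk1 (7.36 ± 4.11), Trpm5 (6.76 ± 1.91), Sox9 (5.77 ± 3.16), Olfm4 (4.43 ± 3.38), Pou2f3 (3.67 ± 0.82) and Lgr5 (0.85 ± 0.68). The place of Cck rests on CX3CR1- replicate 2, since its values per kilobase were 2.62, 142 and 0, below those of Chga in the other libraries (25.7 and 20.996 in replicates 1 and 3). Chgb stood above Chga in every CX3CR1- library, while neighbours from Dclk1 to Pou2f3 overlapped in their ranges. In CX3CR1+ cells Chga (4.93 ± 2.47) and Chgb (4.90 ± 5.09) were level, and Lgr5 (1.06 ± 0.11) stood above Dclk1 (0.80 ± 0.16), although their ranges overlapped (SD, n = 3 each).

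The 3 CX3CR1- libraries also differed in how much of each class they held beside the epithelium in general. Per 1000 of summed epithelial marker value, the stem genes Lgr5, Olfm4 and Sox9 summed to 5.19, 6.57 and 17.5 in replicates 1, 2 and 3. The enteroendocrine genes summed to 33.0, 88.8 and 132, and the tuft genes to 33.6, 26.2 and 36.1. The tuft sum varied least of these, whereas the enteroendocrine sum was lowest in replicate 1, where 10 of the 14 epithelial markers were highest. Replicates have no order, and these ratios are given as a description with no test.

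For each tested crypt gene, the gene with the most similar profile over the 6 libraries was found by the root-mean-square difference of centred log2(value + 1). It was Rspo1 for Chga (0.12), Ednrb for Dclk1 (0.15), Adcy1 for Sox9 (0.19), Mical3 for Trpm5 (0.23), Gpa33 for Chgb (0.45) and Igkv1-88 for Cck (0.47). Ednrb, the endothelin receptor B, had 354, 143 and 176 in CX3CR1- and 21.4, 24.2 and 21.7 in CX3CR1+ libraries, and so followed Dclk1 in every library. Gpa33, an antigen of intestinal epithelium, had 26.4, 45.2 and 38.7 against 0, 2.23 and 0. Igkv1-88, an immunoglobulin light chain segment, shared with Cck a value in CX3CR1- replicate 2, 94.8, far above the other libraries. With 6 libraries many genes have similar profiles, and the likeness is a description.

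**Figure D4:**
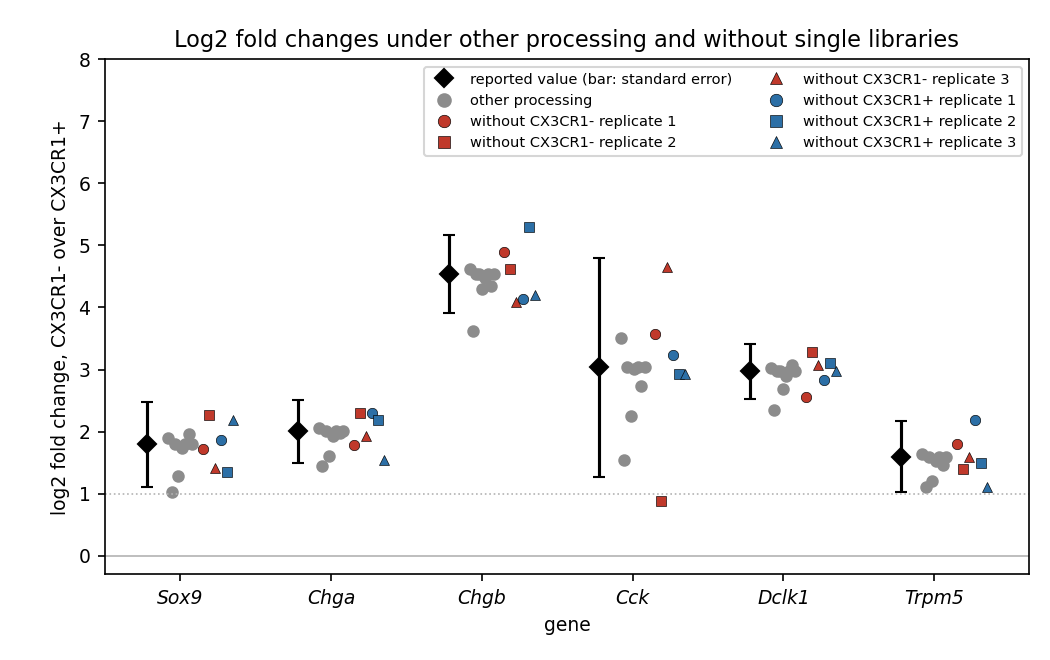
Log2 fold change on log2(value + pseudocount) of the 6 tested crypt genes, with the reported value and its standard error in black, other processing in grey and fits without 1 library in colour. Chgb and Dclk1 keep to values above 2 throughout, while Cck falls to 0.88 without CX3CR1- replicate 2.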

How the data were processed

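RNA was sequenced as 75 bp single reads from 3 CX3CR1- and 3 CX3CR1+ libraries, prepared with a TruSeq RNA v2 kit. The authors pseudoaligned the reads with Kallisto to GENCODE release M16 (mm10) and took gene sums of the estimated counts through tximport. The authors deposited these after DESeq2 normalization, as a signal scaled between libraries. Values are not whole reads: 43.9 to 45.9% of those above 0 were whole multiples of 1 read within 0.02, so no count test was run. The value of 1 read gave the depth per library and the floor of 3 reads, which covers counting error only.

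Genes with a mean of at least 10 were tested with limma 3.58.1 in R 4.3.3 (intensity trend, two-sided) on log2(value + 1), with Benjamini-Hochberg adjustment. The pipeline was tested on simulated data. The crypt genes and all gene lists were chosen with earlier results of these data known. Named were the crypt genes, at most 4 called genes per list with the largest change, list genes whose role was needed beside a crypt gene (chosen after their values were seen where not called), the most abundant marker or markers at 0, and the nearest profile of each tested crypt gene. Where more than 4 called genes of a list are named, the others were added after their values were seen. Gene positions, exon lengths and shared 31-base words come from GENCODE release M21 (GRCm38), promoters from RefSeq. Alternatives were pseudocounts of 0.5 and 10, no filter, a mean of at least 50, quantile normalization, trimmed mean rescaling, no trend, library quality weights, leaving out each library and, added later, a block of adjacent library numbers. The values of 1 gene of the list of tuft genes shared with leukocytes are not reported here.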

Additional observations from a re-analysis of the deposited data

How the results depend on the processing

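The labels share no replicate number between the populations, but the library numbers form adjacent pairs with 1 library of each. A replicate block on these pairs was added after seeing the data. The deviations of adjacent libraries from their group means correlated at 0.104, 0.038 and 0.014 over the tested genes. CX3CR1- replicates 1 and 2 correlated most with their adjacent library, and CX3CR1- replicate 3 more with CX3CR1+ replicate 2 (0.040). With 3 libraries per group, such correlations cannot tell if the libraries were sorted as pairs. The reported fits use no pairing, and the block shows the results with it. Under this block 2165 genes were called higher, 1445 lower and 3 crypt genes higher, Sox9 stayed uncalled (log2 fold change 1.80, limma adjusted p = 0.0663), Gip (limma adjusted p = 0.0411) and Chrd (0.0402) were called, and 0 neuronal genes were higher. Of the values recomputed with all 6 libraries, 464 kept their direction and call or stayed within 1.5 times, and 27 moved. The values that kept include list counts of 0 in every setting. They also include crypt genes below the filter whose mean log2 difference changed by less than the larger group SD. The split is therefore no measure of stability. With a mean of at least 50, the counts called higher were 1232 over all genes, 3 for other stem genes, 0 for hormones, 1 for tuft genes, 1 for Notch and secretory fate, 8 for epithelium, 1 for Paneth cells, 0 for neurons, 1 for glia and 0 for T cells; fewer genes were tested. With no filter, 5 crypt genes, 4 Notch and secretory fate genes and 0 neuronal genes were called higher. Under quantile normalization, which moved the median of all genes to -0.15, the counts higher were 1 for hormones, 1 for granules, 1 for Notch, 3 for the niche, 0 for neurons and 1 for T cells, and 3 MHC class II genes were lower, and the split over all genes was 1716 higher and 1674 lower against 2177 and 1451. Trimmed mean rescaling left 0 neuronal genes higher and 2 MHC class II genes lower. Without the trend, granules and Notch had 1 each. A pseudocount of 10 gave Olfm4 1.09 and Pou2f3 0.99. In these settings Chga, Chgb and Dclk1 kept positive log2 fold changes.

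Leaving out 1 library gave 2 to 4 crypt genes called higher, with log2 fold changes of 1.35 to 2.26 for Sox9, 1.53 to 2.29 for Chga and 1.10 to 2.19 for Trpm5. Counts higher were 1 to 3 for hormones and for granules, 1 to 2 for Notch and 3 to 7 for the niche. They were 2 to 5 for Paneth cells and for glia, 0 to 2 for neurons and 1 to 2 for T cells. For smooth muscle with interstitial cells of Cajal they were 1 to 2. Counts lower ranged from 0 to 1 for other stem genes, 0 to 1 for tuft genes and 0 to 2 for MHC class II. The cause was not tested. Depth bounds the precision for Lgr5, Olfm4 and Pou2f3, which rest on under 50 reads summed over either population.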
